A study of Mus musculus with 4 samples.

Results

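The 35 genes described here encode enzymes of cholesterol and fatty acid synthesis and the proteins that regulate or move their products. They were taken by name from a fixed list and not by their measured values. Earlier results of these data were, however, known when the genes were chosen. All 35 were among the 16342 genes of the 4 count tables, and 34 stood in every table; Scd1 is not listed in the table of week 5 replicate 1 and was taken as 0 there. RNA was counted in single cells sorted from the corpus callosum, the large white matter tract between the hemispheres, of male C57BL/6 mice 13 weeks old. The sort kept living cells with a nucleus that carried CD11b, a surface integrin of microglia and other myeloid cells; the labels name them microglia and macrophages. The 2 week 0 libraries came from untreated mice and the 2 week 5 libraries from mice given cuprizone, a copper chelator that kills oligodendrocytes and so strips axons of myelin. The labels do not say whether the libraries are separate animals or pools. The p-values between the weeks therefore gauge only how far these 4 samples vary, and that variation may be technical. Those between classes of cells rest on the 2 week 5 libraries and do not use a gene's own spread between them.

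Cholesterol is built from acetyl-CoA through mevalonate, farnesyl diphosphate, squalene and lanosterol, and fatty acids are built from acetyl-CoA through malonyl-CoA and are then elongated and desaturated. The transcription factors SREBP1 (Srebf1) and SREBP2 (Srebf2) are held in the endoplasmic reticulum by SCAP and the INSIG proteins when sterol is plentiful, and when it is scarce they are cut and switch on these enzymes. Microglia that take up myelin receive cholesterol in bulk; Apoe encodes an apolipoprotein that carries lipid out of cells and Lpl a lipase that releases fatty acids from lipoproteins, and both are known to be raised in microglia around myelin damage. The 2 questions asked of the 35 genes were whether they differed between week 5 and week 0, and whether they differed between week 5 cells rich and poor in Apoe or Lpl transcript.

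Of the 35 genes, 28 had an entry in the RefSeq promoter table (build GRCm38.p6); Fdps, Fdft1, Sqle, Stard4, Scd1, Scd2 and Fads1 had none. In the 250 bases before the first listed start, on either strand, CCAAT, the box bound by the factor NF-Y, stood in 20 of the 28 (71.4%) and in 34.5% of all 27025 promoters in the table. Among the sterol enzymes it stood in 13 of 15 (86.7%), among the fatty acid enzymes in 3 of 8 (37.5%), and among the regulators in 4 of 5. TCACNCCAC, a form of the sterol regulatory element that SREBPs bind, stood in 1 of the 28, Hmgcs1, and in 1.04% of all promoters. CACGTG stood in 4 of the 28 (14.3%) and in 6.05% of all promoters. The 150 bases before the start are shown for Hmgcs1, which holds both the sterol element and the CCAAT box, for Msmo1 with its pair of CCAAT boxes, for Pmvk and Elovl1 with 1 each, and for Dhcr7 with neither; the last 4 were also the sterol and elongase genes that differed between classes of cells below. Capitals mark TCACNCCAC and the CCAAT box, which reads as ATTGG where it lies on the other strand; in Hmgcs1 they do not overlap.
Hmgcs1, chr13:119690201-119690350, plus strand: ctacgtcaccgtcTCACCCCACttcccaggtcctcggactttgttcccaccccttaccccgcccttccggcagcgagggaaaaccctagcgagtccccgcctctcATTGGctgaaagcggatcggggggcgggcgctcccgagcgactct
Msmo1, chr8:64733579-64733728, minus strand: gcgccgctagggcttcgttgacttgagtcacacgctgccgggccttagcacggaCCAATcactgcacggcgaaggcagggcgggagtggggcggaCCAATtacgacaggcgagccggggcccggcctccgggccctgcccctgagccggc
Pmvk, chr3:89454391-89454540, plus strand: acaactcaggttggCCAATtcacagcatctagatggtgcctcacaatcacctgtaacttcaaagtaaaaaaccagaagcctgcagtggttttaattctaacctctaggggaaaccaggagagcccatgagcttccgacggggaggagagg
Elovl1, chr4:118427943-118428092, plus strand: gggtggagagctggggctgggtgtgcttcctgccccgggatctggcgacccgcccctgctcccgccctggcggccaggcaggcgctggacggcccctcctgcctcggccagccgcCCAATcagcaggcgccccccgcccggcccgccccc
Dhcr7, chr7:143823017-143823166, plus strand: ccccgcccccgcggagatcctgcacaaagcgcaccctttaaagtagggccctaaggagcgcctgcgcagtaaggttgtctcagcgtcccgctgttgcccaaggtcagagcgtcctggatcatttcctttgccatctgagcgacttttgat
A match describes letters in the reference and is not a measured binding site; a window without these letters may still hold other forms of the element.

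Each table held 1000 barcodes, and 3728 of the 4000 cells were used, those with 500 genes or more and a mitochondrial share of UMIs (unique molecular identifiers, 1 per captured molecule) of 10% or less. These cells held 2367494 to 6531101 UMIs a library, with a median of 1531 and 3945 UMIs a cell in week 0 replicates 1 and 2 and of 6157 and 2489 in week 5 replicates 1 and 2. In 95.2% to 99.7% of them, UMIs of 10 microglia markers, all of which were counted in every library, outnumbered those of every other cell type list (microglia-marker cells). Their summed level was 29138 and 33578 counts-per-million of the total UMIs (the unit of all marker sums) at week 0 and 17494 and 21537 at week 5. Choroid plexus markers (836 and 1.75 against 1962 and 2132, chiefly Ttr outside week 0 replicate 2) and myelin markers (121 and 121 against 201 and 146, with Mal at 0 in both week 5 libraries) also differed; within microglia-marker cells the myelin markers stood at 117 and 121 against 106 and 102. Border macrophage markers stood at 387 and 38.9 against 361 and 222. The part of these markers in the week 5 results was not tested, but values without myelin-marked cells are given below. Only 6 barcodes occurred in more than 1 table.

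Together the 35 genes took a small and nearly constant share of the transcripts. Their UMIs numbered 1784 and 3461 at week 0 and 4583 and 2245 at week 5, which was 0.0754% and 0.0756% of all UMIs against 0.0702% and 0.0688%. Both week 5 shares lay below both week 0 shares on this scale. On the scale used for the tests, counts-per-million on the effective library size (CPM; the total after a correction by trimmed means, TMM, for a few abundant transcripts), the summed level was 696 and 705 at week 0 and 839 and 678 at week 5, and the groups overlapped. Thus the separation of the groups was lost with the TMM correction. With every cell thinned to 1000 UMIs there were 0.726 and 0.759 UMIs of the 35 genes per cell at week 0 and 0.688 and 0.683 at week 5.

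None of the 35 genes passed the test between week 5 and week 0, while Apoe and Lpl rose far above the spread between libraries. Apoe stood at 2561 and 521 CPM at week 0 and at 56322 and 22375 CPM at week 5, and Lpl at 17.9 and 16.3 against 769 and 231 CPM (log2 fold changes 4.68, SE 0.92, and 4.88, SE 0.54; edgeR's quasi-likelihood test, adjusted p = 0.0255 and 0.00167). Of the members, 31 had enough counts to be tested; Sqle, Scd1, Elovl6 and Fads2 did not. By edgeR 0 of 31 had an adjusted p under 0.05, where 2.70% of all 11259 genes tested did (276 higher, 2.45%, and 28 lower, 0.249%); 3 had an unadjusted p under 0.05 (13.8% of all genes did), and DESeq2 and limma-voom also called 0, with 2 and 1 at an unadjusted p under 0.05. The members' log2 fold changes ran from -0.66 to 1.33 with a median of 0.13 (all genes tested, -0.01). Of the 31, 21 lay above 0, where 48.7% of all genes tested did. In 8 members both week 5 libraries stood above both week 0 libraries (21.1% of all genes tested did), and in 4 below (22.2%). The standard errors ran from 0.20 to 0.62, so a missing call does not show that a gene was unchanged. With library size as the only scaling, the median of all genes moved to -0.24 and that of the members to -0.11, and the calls over all genes split into 295 higher of 384.

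**Figure D1:**
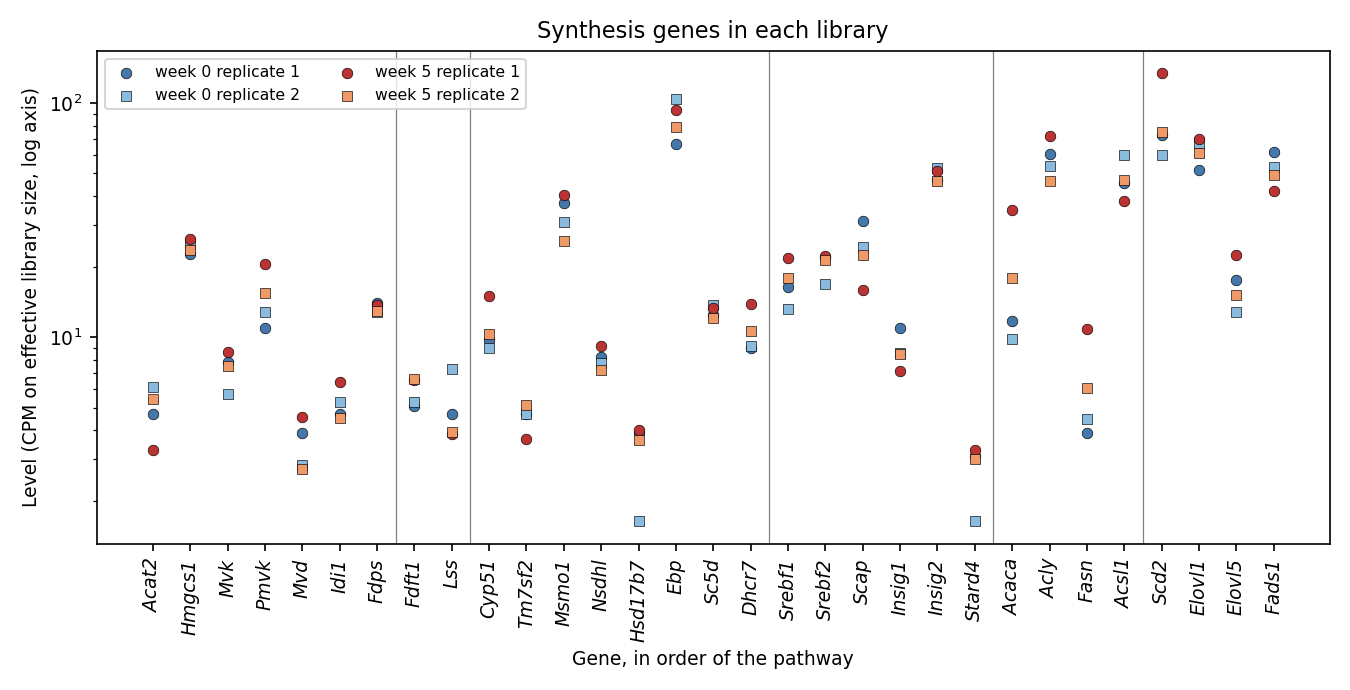
Level of the 31 tested synthesis genes in each library (vertical axis, CPM on the effective library size, log scale; horizontal axis, genes in pathway order, grey lines between roles; blue, week 0; red and orange, week 5; circles, replicate 1; squares, replicate 2). For most genes the 4 points lie close together and interleave; Acaca (11.7 and 9.78 against 34.96 and 17.8 CPM) and Fasn are the visible exceptions, and in Scd2 it is week 5 replicate 1 that stands apart.

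The early sterol enzymes, from acetyl-CoA to farnesyl diphosphate, summed to 68.6 and 70.7 CPM at week 0 and to 83.3 and 72.2 CPM at week 5, and 0 of 7 changed. Hmgcs1, which makes HMG-CoA, stood at 22.6 and 25.1 CPM at week 0 and at 26.2 and 23.6 CPM at week 5. Fdps, the farnesyl diphosphate synthase, stood at 14.0 and 12.8 against 13.7 and 13.0 CPM. For both genes the groups overlapped, with log2 fold changes of 0.06 (SE 0.23) and 0.00 (SE 0.27). Pmvk, the phosphomevalonate kinase, stood at 10.9 and 12.8 against 20.5 and 15.4 CPM; here both week 5 libraries were higher (log2 fold change 0.59, SE 0.28), without passing the test (edgeR adjusted p = 0.396). The remaining 4, Acat2, Mvk, Mvd and Idi1, lay below 10 CPM in every library.

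The steps through squalene to lanosterol gave few counts. Fdft1, squalene synthase, stood at 5.07 and 5.30 CPM at week 0 and at 6.59 and 6.65 CPM at week 5, and Lss, lanosterol synthase, at 4.68 and 7.34 against 3.84 and 3.93 CPM. In neither did the groups overlap, in opposite directions, and the log2 fold changes of 0.35 (SE 0.41) and -0.66 (SE 0.46) did not pass (edgeR adjusted p = 0.810 and 0.635). Sqle, squalene epoxidase, a rate-limiting step, had 3 UMIs in each week 0 library and 14 and 4 UMIs in week 5 replicates 1 and 2, too few to test.

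From lanosterol to cholesterol, 0 of 8 enzymes changed and their sum was 152 and 181 against 193 and 153 CPM. Ebp, the sterol isomerase, stood at 67.1 and 104 CPM at week 0 and at 93.7 and 78.8 CPM at week 5 (log2 fold change 0.00, SE 0.25). Msmo1, the C4 methyl oxidase, stood at 37.4 and 31.0 against 40.4 and 25.7 CPM (-0.03, SE 0.26). The week 5 values of Ebp lay between those of week 0, and the week 5 values of Msmo1 enclosed them. Sc5d, the C5 desaturase, stood at 12.5 and 13.7 against 13.4 and 12.1 CPM (-0.04, SE 0.28). Dhcr7, which makes cholesterol from its 7-dehydro precursor, stood at 8.97 and 9.17 against 13.9 and 10.6 CPM, with no overlap and no call (0.44, SE 0.31; edgeR adjusted p = 0.643). Cyp51, Tm7sf2, Nsdhl and Hsd17b7 had log2 fold changes of 0.46, -0.11, 0.06 and 0.57, with standard errors of 0.32 to 0.61.

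Of the regulators 0 of 6 passed by edgeR, with 0 at an unadjusted p under 0.05. Their sum was 130 and 117 against 122 and 119 CPM, with overlap; as a share of all UMIs it was 0.0141% and 0.0126% against 0.0102% and 0.0121%, both week 5 libraries being lower. Srebf1, which mainly drives fatty acid genes, stood at 16.4 and 13.2 CPM at week 0 and at 21.8 and 17.8 CPM at week 5 (log2 fold change 0.44, SE 0.26). Srebf2, which mainly drives sterol genes, stood at 21.8 and 16.9 against 22.1 and 21.4 CPM (0.19, SE 0.25), so that its groups overlapped while those of Srebf1 did not. Scap, the escort of both, stood at 31.2 and 24.2 against 15.9 and 22.4 CPM, both week 5 libraries being lower (-0.54, SE 0.26; edgeR adjusted p = 0.425). Insig2, an anchor of SCAP, stood at 46.8 and 52.8 against 51.4 and 46.2 CPM, and its groups overlapped. Insig1 lay between 7.14 and 10.9 CPM, and Stard4, a carrier of sterol between membranes, between 1.63 and 3.29 CPM.

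The fatty acid genes Acaca, Fasn and Scd2 had the 3 highest log2 fold changes of the 31 tested. Lss lay as far below 0 as Scd2 above it, and further with library size as the only scaling (-0.89 against 0.41). Acaca, acetyl-CoA carboxylase, the committed step of fatty acid synthesis (chr11:84129672-84401651, plus strand, GENCODE M21 on GRCm38), had 30 and 48 UMIs at week 0 and 191 and 59 UMIs at week 5. Its level was 11.7 and 9.78 against 34.96 and 17.8 CPM, and both week 5 libraries stood above both of week 0 (log2 fold change 1.33, SE 0.34; edgeR adjusted p = 0.0794). It passed when week 0 replicate 1 or week 5 replicate 2 was left out (1.44 and 1.76; adjusted p = 0.0032 and 4.05e-08) and was 0.75 (adjusted p = 0.482) without week 5 replicate 1. Among cells with at most 2996 genes it was 0.68 (adjusted p = 0.26), among cells without a myelin marker UMI 1.00 (adjusted p = 0.116), and in cells thinned to 1000 UMIs 0.80 (adjusted p = 0.619).

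Fasn, the fatty acid synthase, named here after its values were seen, stood at 3.90 and 4.48 CPM at week 0 and at 10.8 and 6.04 CPM at week 5 (log2 fold change 1.01, SE 0.45; edgeR adjusted p = 0.346), on 10, 22, 59 and 20 UMIs. Acly, which supplies cytosolic acetyl-CoA, stood at 60.8 and 54.0 against 72.3 and 46.2 CPM, and its week 5 values enclosed those of week 0. Acsl1, which activates fatty acids with coenzyme A, stood at 45.6 and 59.9 against 38.1 and 47.1 CPM (-0.32, SE 0.23), also with overlap.

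Among the desaturases, Scd2, which puts the first double bond into saturated acyl chains, had 188 and 293 UMIs at week 0 and 733 and 250 UMIs at week 5. Its level was 73.3 and 59.7 against 134 and 75.5 CPM (log2 fold change 0.67, SE 0.28; edgeR adjusted p = 0.314). Week 5 replicate 2 lay barely above week 0 replicate 1, and the difference rested on week 5 replicate 1: without week 5 replicate 2 it was 1.06 (adjusted p = 9.2e-05), and without week 5 replicate 1 it was 0.20 (adjusted p = 0.951). Its paralogue Scd1, the main form of liver and fat, gave 5, 1, 0 and 2 UMIs over the 4 libraries; a UMI stands for 1 molecule whatever the transcript's length, so the 8 Scd1 and 1464 Scd2 molecules can be set side by side, apart from reads that the 2 similar genes might share.

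Fads1, a desaturase of polyunsaturated fatty acids (chr19:10182888-10196877, plus strand), stood at 62.0 and 53.4 CPM at week 0 and at 42.3 and 49.2 CPM at week 5, both week 5 libraries being lower (log2 fold change -0.33, SE 0.21; edgeR adjusted p = 0.576). Elovl1, which elongates very long chains, stood at 51.9 and 67.2 against 69.9 and 61.0 CPM, with overlap (0.13, SE 0.22). Elovl5, which elongates polyunsaturated chains, ranged from 12.8 to 22.5 CPM over the 4 libraries. Elovl6 and Fads2 had 18 and 23 UMIs in all and were not tested.

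**Figure D2:**
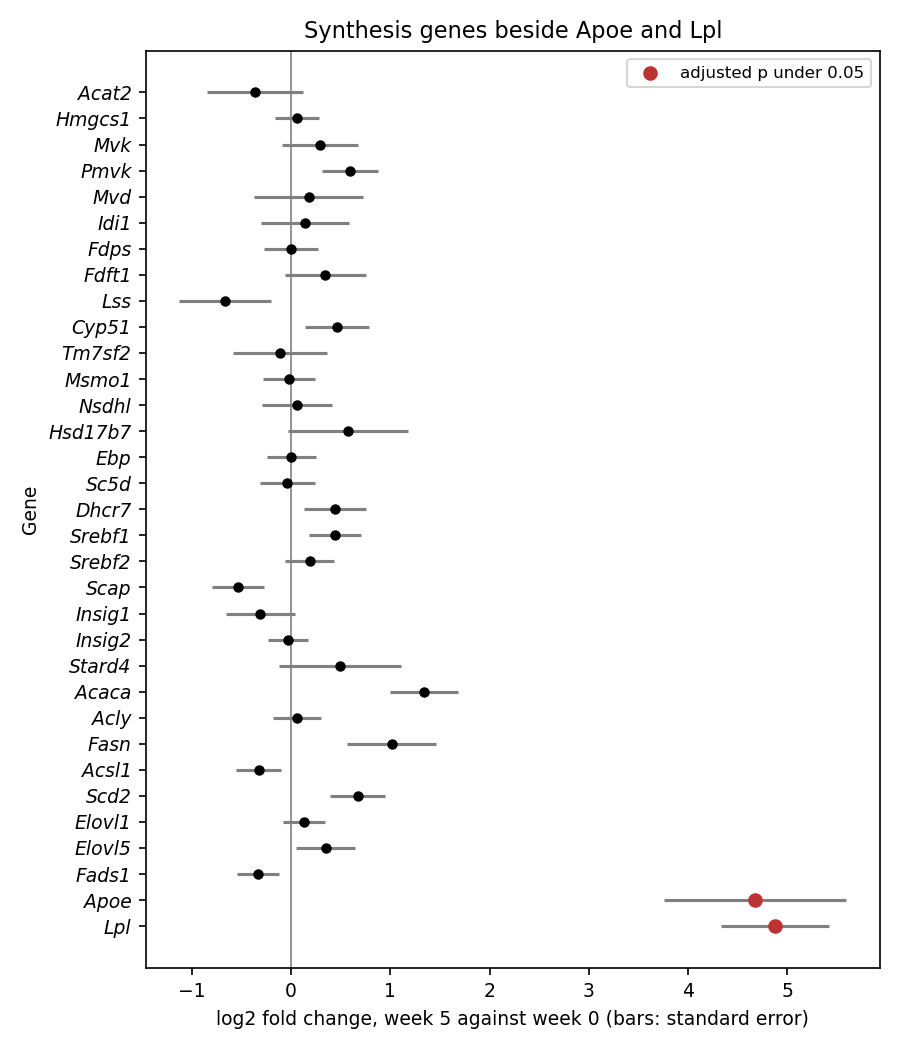
Log2 fold change of week 5 against week 0 (horizontal axis) for the 31 tested synthesis genes and for Apoe and Lpl (vertical axis); points are edgeR estimates from 2 libraries a group and bars are standard errors. Red points passed an adjusted p of 0.05: Apoe and Lpl at 4.68 and 4.88 did, while the synthesis genes lie between -0.66 and 1.33 and none is red.

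Other genes of the same pathways, from lists drawn up by function, gave no calls between the weeks either. As only 2.70% of all genes tested were called, this does not set lists this short apart. Of the genes that process SREBPs or turn over its regulators 0 of 10 passed by edgeR (median log2 fold change -0.09). Of other lipid synthesis genes 0 of 14 passed (0.05), with Me1 and Elovl7 not tested. Of the LXR receptor genes and some of their targets, which respond to sterol excess, 0 of 6 passed (0.30), with Nr1h3 not tested. An unadjusted p under 0.05 was found for 0, 1 and 2 genes of these lists, in that order (13.8% of all genes). The LXR list is not complete, and Apoe, Lpl and Srebf1, given above, were not on it. Abcg1, a cholesterol exporter and LXR target, stood at 103 and 101 CPM at week 0 and at 271 and 155 CPM at week 5 (log2 fold change 1.06; edgeR adjusted p = 0.093). Both week 5 values lay above both week 0 values without a call.

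Within the week 5 libraries, edgeR called Acaca, Scd2, Pmvk, Dhcr7 and Srebf1 higher in Apoe-rich than in Apoe-poor cells and Fads1 lower. Of the 10 sterol enzymes tested 8 did not pass, which was near the share of all genes, 21.2% of which were called. The members' calls depended on the test and on which cells and counts were used. DESeq2 kept Scd2 alone, and 0 members passed among cells of 3000 to 9000 UMIs or on sums of thinned counts. Over all 4 libraries 0 members passed as well. There the week 0 classes were cells with and without an Apoe UMI, which is another contrast. Each microglia-marker cell with at least 1000 UMIs was thinned to 1000 UMIs and placed by its Apoe UMIs into a low class (up to 4 in replicate 1, up to 2 in replicate 2), a high class (at least 35 and 13) or the middle. The low, middle and high classes held 296, 275 and 297 cells in replicate 1 and 321, 190 and 258 in replicate 2. Apoe averaged 1.80, 15.2 and 84.2 UMIs per 1000 in replicate 1 and 0.850, 5.92 and 61.1 in replicate 2. All UMIs of the high and low cells were summed per library, and the 2 classes were compared with the library as a term in edgeR. With 1 residual degree of freedom, edgeR gave every gene the same spread at its level (an infinite prior), so that a gene's own disagreement between the libraries did not widen its error; the values of both libraries are therefore printed. The cells are the same libraries as in the comparison of weeks, and the Apoe and Lpl classes share cells.

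Of the 35 genes, 21 were tested and 6 called between Apoe-high and Apoe-low cells, 5 higher and 1 lower. This was 28.6% of those tested, where 21.2% of all 9476 genes were called (12.9% higher and 8.33% lower); the same 6 had an unadjusted p under 0.05, as had 30.4% of all genes. The median log2 fold change was 0.19 (all genes, -0.03). In 11 members the high class stood above the low class in both libraries (33.3% of all genes did), and in 4 below in both (35%). With library size as the only scaling the median of all genes moved to -0.37 and that of the members to -0.17, and the calls over all genes turned from 1219 higher of 2008 to 652 higher of 2737; Acaca and Scd2 were still called higher and Fads1 lower, while Pmvk, Dhcr7 and Srebf1 were no longer called and Acsl1 and Insig2 became lower. The summed level of the 35 genes climbed on the CPM scale, to 695, 823 and 887 CPM from low to high in replicate 1 and 609, 653 and 693 CPM in replicate 2. In thinned cells, where Apoe's own UMIs count in the total and every cell weighs the same, it did not: it was 0.659, 0.818 and 0.582 UMIs per 1000 in replicate 1 and 0.654, 0.726 and 0.632 in replicate 2, with the middle class highest.

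Acaca rose most, and Scd2 rose by nearly the same factor in both libraries. Acaca stood at 8.45 CPM in Apoe-low, 26.8 in middle and 61.2 in high cells of replicate 1, and at 11.5, 22.8 and 19.1 CPM in replicate 2 (log2 fold change 2.01, SE 0.32; edgeR adjusted p = 5.75e-09). The high class lay above the low class in both libraries, but by a log2 ratio of 2.66 in replicate 1 and 0.68 in replicate 2. In replicate 2, 17 UMIs stood against 19 in classes of unequal depth. Log2 ratios of single libraries, here and below, used the scaling of the fit, with a small count added to each gene. They differ somewhat from the ratios of the printed levels. Scd2 stood at 74.8, 139 and 168 CPM in replicate 1 and at 48.7, 67.0 and 94.3 CPM in replicate 2 (1.07, SE 0.19; adjusted p = 4.9e-07). It climbed through the 3 classes in both libraries, by 1.13 and 0.95 between low and high. On sums of thinned counts the log2 fold change was 0.73 and did not pass (edgeR adjusted p = 0.167). Across single thinned cells, Spearman's rho of Scd2 with Apoe was -0.012 in replicate 1 (868 cells) and 0.104 in replicate 2 (769 cells), and that of Acaca 0.0634 and -0.0032, weak values from sparse counts that share each cell's total.

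Of the 18 sterol enzymes 10 had enough counts to be tested, and of these Pmvk and Dhcr7 passed, near the 21.2% of all genes. Acat2, Mvd, Idi1, Fdft1, Sqle, Lss, Tm7sf2 and Hsd17b7 were not tested. Pmvk stood at 12.7, 12.7 and 28.3 CPM from low to high in replicate 1 and at 11.5, 21.4 and 19.1 CPM in replicate 2 (log2 fold change 0.98, SE 0.34; edgeR adjusted p = 0.0206). Dhcr7 stood at 6.03, 14.1 and 19.2 CPM in replicate 1 and at 10.1, 2.85 and 14.0 CPM in replicate 2 (1.10, SE 0.39; adjusted p = 0.0238). In both genes the high class was above the low class in both libraries, though the middle class of replicate 2 broke the order. Hmgcs1 (0.30, SE 0.29), Msmo1 (0.14, SE 0.26), Ebp (0.22, SE 0.19), Sc5d (0.19, SE 0.37) and Fdps (-0.02, SE 0.37) did not pass. Neither did Mvk (-0.44, SE 0.47), Cyp51 (-0.31, SE 0.39) and Nsdhl (-0.24, SE 0.45), which lay below 0.

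Of the regulators only Srebf1 passed among the 4 tested (25%, near the 21.2% of all genes). It stood at 8.45, 28.8 and 26.02 CPM from low to high in replicate 1 and at 16.9, 7.13 and 18.1 CPM in replicate 2 (log2 fold change 0.89, SE 0.34; edgeR adjusted p = 0.0405). The difference came from replicate 1 (1.47) and was 0.10 in replicate 2. Srebf2 (0.42, SE 0.32), Scap (-0.44, SE 0.34) and Insig2 (-0.30, SE 0.22) did not pass.

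Fads1 was the member that fell. It stood at 48.3, 50.2 and 29.2 CPM from low to high in replicate 1 and at 56.1, 54.2 and 34.1 CPM in replicate 2 (log2 fold change -0.73, SE 0.24; edgeR adjusted p = 0.013). In each library the high class alone stood lower, and the difference was -0.72 and -0.69. Elovl1 (0.02, SE 0.20), Elovl5 (0.39, SE 0.33), Acly (0.20, SE 0.21) and Acsl1 (-0.36, SE 0.24) did not pass.

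**Figure D3:**
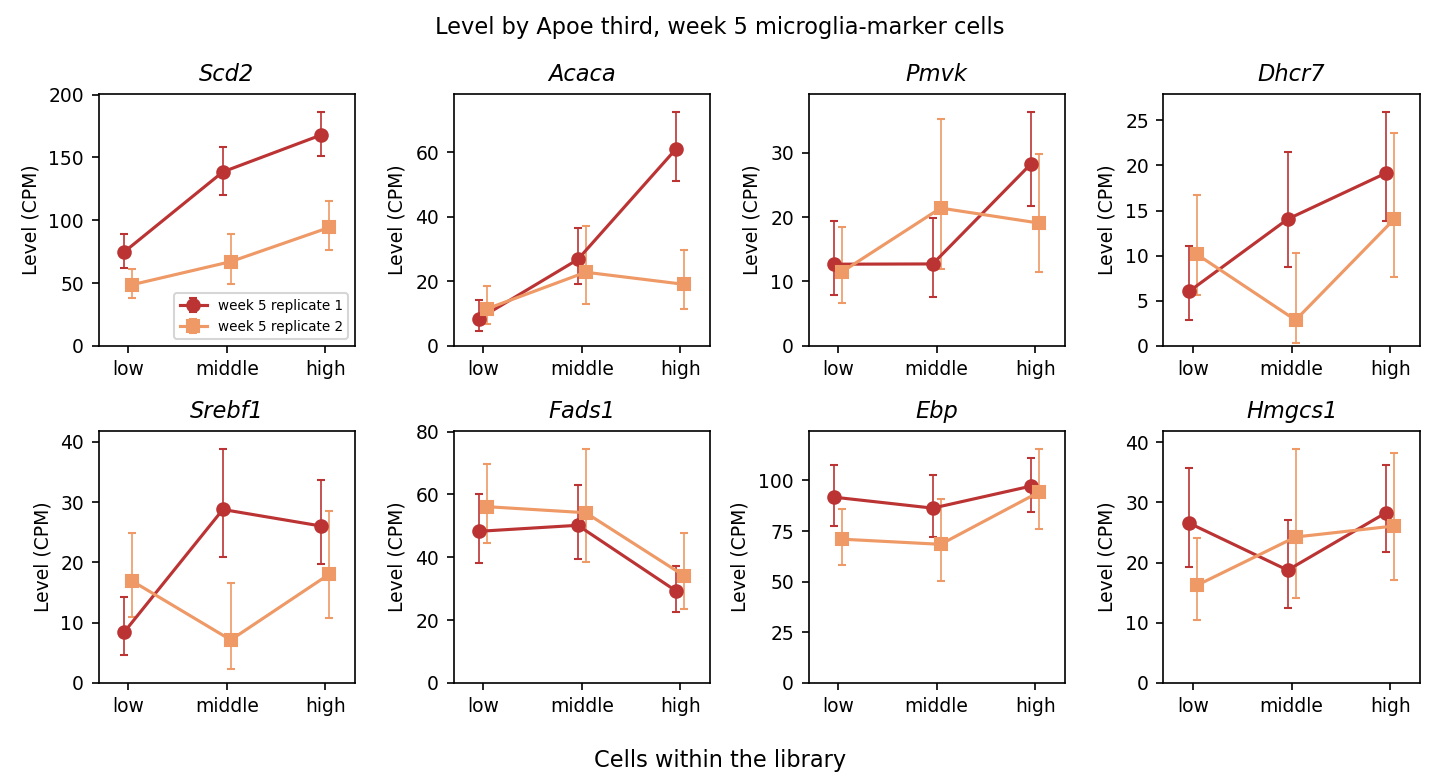
Level (vertical axis, CPM) of 8 synthesis genes in Apoe-low, middle and high microglia-marker cells (horizontal axis) of week 5 replicate 1 (red circles) and replicate 2 (orange squares); bars are 95% exact Poisson intervals of the summed UMIs, counting error only. Scd2 climbs and Fads1 drops at the high class in both libraries, Acaca climbs steeply in replicate 1 only, and for Ebp and Hmgcs1 the bars of low and high cells overlap in both libraries.

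Depth and other markers moved with the Apoe classes. The median cell had 5634.5, 5340 and 10207 UMIs from low to high in replicate 1 and 4615, 1838 and 4214 UMIs in replicate 2. Microglia markers fell from 28428 to 11383 between low and high in replicate 1 and from 28683 to 15724 in replicate 2, and border macrophage markers went from 25.5 to 169 and from 37.7 to 191. Oligodendrocyte precursor markers went from 1.91 to 24.4 and from 0 to 18.5, and endothelial and mural markers from 19.1 to 63.1 and from 16.9 to 30.4. The precursor sum was chiefly Cspg4, with 127 and 20 UMIs over all week 5 cells. Vcan had 1 and 5, and Pdgfra was not listed. Of the endothelial and mural list, Flt1 had 2 and 2 UMIs at week 0 and 255 and 28 at week 5. Pecam1 went the other way (82 and 122 against 52 and 41), and Cldn5 and Rgs5 were not listed. Myelin markers went from 106 to 77.2 and from 105 to 89.5. The part of these markers in the results was not tested. Among cells of 3000 to 9000 UMIs, where the medians of the low and high classes were 6124 and 6603 in replicate 1 and 5874 and 5550 in replicate 2, 0 of 18 members passed, with log2 fold changes of 0.73 for Acaca, 0.47 for Scd2, 0.50 for Srebf1, 0.37 for Pmvk and -0.23 for Fads1 (edgeR adjusted p = 0.396, 0.141, 0.562, 0.732 and 0.701). That window held fewer cells, 163 low and 147 high in replicate 1 and 153 and 137 in replicate 2. Its Apoe limits were also lower, at 2 and 15 UMIs in replicate 1 and 1 and 12 in replicate 2. The part of depth in the loss of calls was not tested. On the main classes DESeq2 called Scd2 alone (adjusted p = 0.0233, and 0.062 for Acaca).

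Of the other lists, to be read against the 21.2% of all genes called, 3 of 6 genes of the LXR list were higher in Apoe-high cells: Smpdl3a (log2 fold change 1.40), Abcg1 (0.95) and Abca1 (0.79), the last 2 being exporters of cholesterol. Of 9 genes of SREBP processing 1 (11.1%) was lower, Mbtps1 (-0.66), the site-1 protease that makes the first cut in SREBPs. Of 11 other lipid synthesis genes 3 (27.3%) were called, near the share of all genes: Hacd2 (0.69), a dehydratase of chain elongation, was higher, and Acsl4 (-0.65), which activates arachidonate, and Ggps1 (-0.54), which makes geranylgeranyl diphosphate, were lower. Abca1 stood at 430, 648 and 924 CPM from low to high in replicate 1 and at 342, 342 and 476 CPM in replicate 2.

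Cells with an Lpl UMI carried more Scd2, in both libraries and under every test run. Of the thinned microglia-marker cells, 166 of replicate 1 and 103 of replicate 2 had at least 1 Lpl UMI (19.1% and 13.4%) and 702 and 666 had none; 75 and 66 of the positive cells had exactly 1. At the same thinned depth, 2 of 38 and 0 of 41 cells led by markers of another cell type had an Lpl UMI at week 5 (5.26%, and 0%, which allows up to 7.32%; median depth before thinning 5880.5 and 2951 UMIs against 6439.5 and 4053), as did 13 of 770 and 13 of 845 microglia-marker cells at week 0 (1.69% and 1.54%). The part of free RNA in the positive class was not tested. Of the 35 genes 24 were tested and 4 called, all higher, which was 16.7% of those tested, where 15.5% of all 9945 genes were called (9.85% higher and 5.65% lower); 6 had an unadjusted p under 0.05, as had 25.7% of all genes. The median log2 fold change was 0.28 (all genes, -0.01). In 13 members the Lpl-positive cells stood above in both libraries (29.7% of all genes did) and in 5 below (36.7%). Summed over the 35 genes, thinned cells had 0.657 UMIs per 1000 without and 0.795 with Lpl in replicate 1, and 0.643 and 0.806 in replicate 2. With library size as the only scaling the median of all genes moved to -0.25 and that of the members to 0.04, and the calls over all genes turned from 980 higher of 1542 to 510 higher of 2052; of the members Scd2 and Acaca were then called higher and Fads1 and Acsl1 lower.

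Scd2 stood at 89.6 CPM in Lpl-negative and 213 CPM in Lpl-positive cells of replicate 1 and at 51.8 and 132 CPM in replicate 2 (415, 284, 156 and 57 UMIs). The log2 fold change was 1.31 (SE 0.16; edgeR adjusted p = 6.87e-14), and 1.27 and 1.38 in the 2 libraries alone. Over the alternatives it ran from 0.90 to 1.38 and passed in all 8 that gave a test (adjusted p = 5.45e-16 to 0.0225), the last being that of the cells of 3000 to 9000 UMIs. Across single thinned cells, Spearman's rho of Scd2 with Lpl was 0.07 in replicate 1 (868 cells) and 0.132 in replicate 2 (769 cells). These too were weak values from sparse counts. Scd2 lies at chr19:44293674-44306864 on the plus strand (GENCODE M21, GRCm38), with Mir5114 inside it on the same strand and no gene on the other.

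Acaca stood at 23.3 and 60.0 CPM without and with Lpl in replicate 1 and at 13.6 and 25.5 CPM in replicate 2 (log2 fold change 1.28, SE 0.26; edgeR adjusted p = 2.71e-05), the last value resting on 11 UMIs. Elovl1 stood at 54.8 and 86.2 CPM and at 54.5 and 78.7 CPM (0.64, SE 0.18; adjusted p = 0.00322). Msmo1 stood at 29.6 and 44.2 CPM and at 21.9 and 39.4 CPM (0.69, SE 0.25; adjusted p = 0.0388). All 3 were higher with Lpl in both libraries, but Msmo1 passed in 0 of 8 alternative tests, Elovl1 in 4 and Acaca in 5. Across single thinned cells, Spearman's rho of Acaca with Lpl was 0.0848 in replicate 1 and -0.00652 in replicate 2. Elovl1 overlaps Cdc20 on the other strand. Such an overlap with an annotated gene was found for 13 of the 35 genes in all (Srebf1 with Rai1, Fdft1 with Ctsb), and the strand setting of the counting was not given in the sources used here; reads of such pairs may not have been told apart.

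Fads1 stood at 39.7 and 26.2 CPM without and with Lpl in replicate 1 and at 47.8 and 25.5 CPM in replicate 2 and just missed the test (log2 fold change -0.67, SE 0.25; edgeR adjusted p = 0.0502). The other sterol enzymes tested did not pass. They were Hmgcs1 (0.30, SE 0.31), Ebp (0.29, SE 0.17), Sc5d (0.01, SE 0.45), Dhcr7 (0.28, SE 0.43), Cyp51 (0.45, SE 0.43), Pmvk (0.21, SE 0.35), Fdft1 (0.25, SE 0.63), Nsdhl (0.05, SE 0.56), Fdps (-0.15, SE 0.45) and Mvk (-1.07, SE 0.69). Srebf1 stood at 15.97 and 29.99 CPM in replicate 1 and at 13.95 and 13.89 CPM in replicate 2, and Srebf2 at 17.9 and 17.2 and at 19.6 and 11.6 CPM, so the libraries did not share a direction for Srebf1 and neither gene passed.

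**Figure D4:**
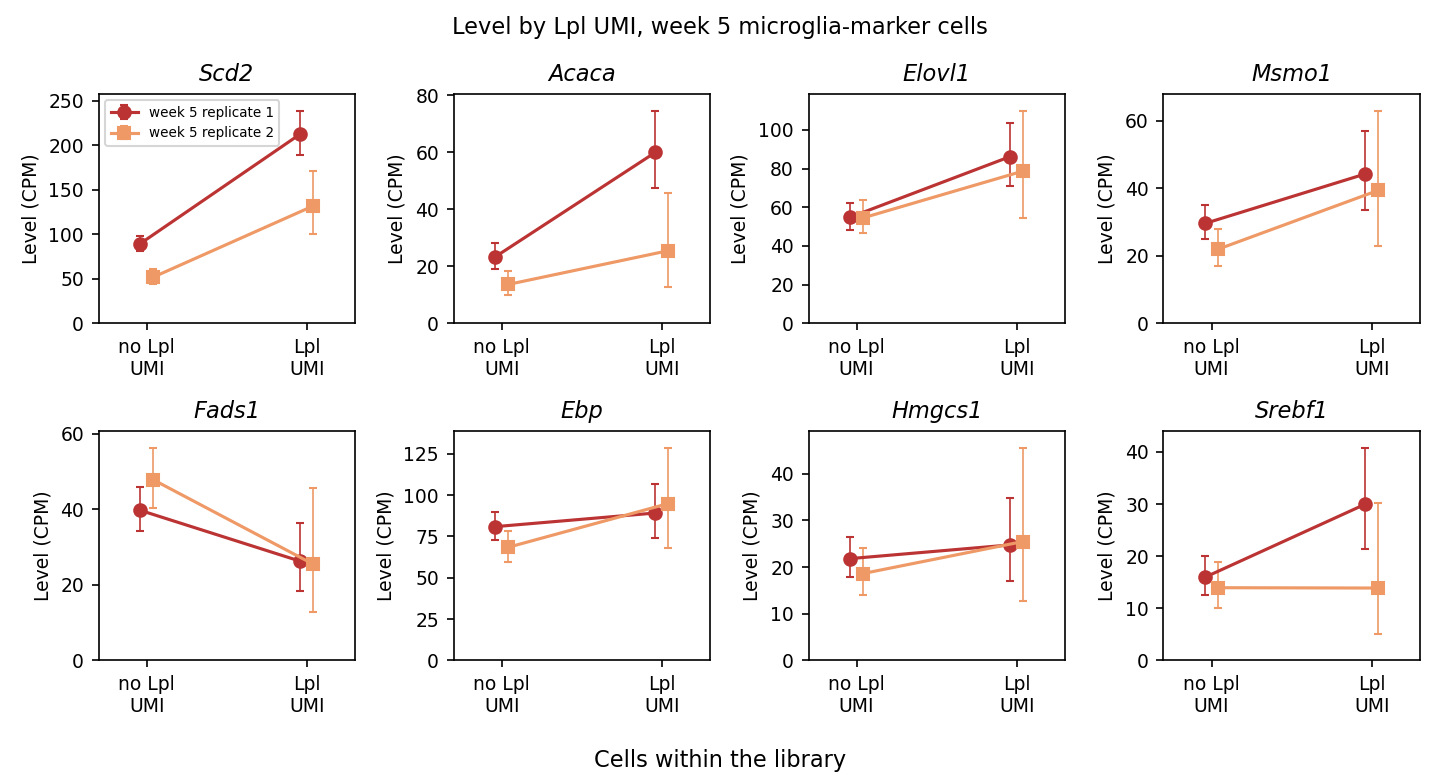
Level (vertical axis, CPM) of 8 synthesis genes in week 5 microglia-marker cells without and with an Lpl UMI (horizontal axis) in replicate 1 (red circles) and replicate 2 (orange squares); bars are 95% exact Poisson intervals of the summed UMIs, counting error only. Scd2, Acaca, Elovl1, Msmo1, Ebp and Hmgcs1 are higher with Lpl in both libraries and Fads1 is lower in both; the bars of cells without and with Lpl lie apart in both libraries for Scd2 alone.

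The Lpl classes also differed in other ways. The median cell had 6174.5 UMIs without and 8875.5 with Lpl in replicate 1 and 4106.5 and 2771 in replicate 2, so depth moved in opposite directions in the 2 libraries. Apoe was higher with Lpl (41144 and 82467 CPM in replicate 1, 15247 and 57942 CPM in replicate 2; log2 fold change 1.497). Microglia markers fell from 19858 to 12271 and from 23999 to 15886. Oligodendrocyte precursor markers, chiefly Cspg4 (127 and 20 UMIs over all week 5 cells), went from 7.06 to 58.1 and from 2.71 to 30.5. Myelin markers went from 92.0 to 150 in replicate 1 and from 112 to 53.9 in replicate 2. The part of these in the results was not tested.

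Among the other lists, Hacd2 (log2 fold change 1.10) and Hsd17b12 (0.75), which with the ELOVL enzymes belong to the 4-step elongation cycle, were higher in Lpl-positive cells, 2 of 14 tested of the other lipid synthesis genes (14.3%, near the 15.5% of all genes). Hacd2 stood at 65.8 and 133 CPM in replicate 1 and at 39.9 and 90.3 CPM in replicate 2. Abcg1 (0.44) was the 1 of 6 LXR list genes that passed (16.7%), and 0 of 10 genes of SREBP processing did by edgeR, with 0 at an unadjusted p under 0.05.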

How the data were processed

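Single-cell 3′ libraries were counted by the authors, who deposited a table of raw UMI counts (whole numbers, genes by cells) for each library; the submitters' processing notes list STAR, Cell Ranger 3.0.0, Seurat 4 and mm10 without saying what each did. The choice of 1000 barcodes a table, and of its genes, was not given in the sources used here. Cells reached at most 2999 and 6615 genes in week 0 replicates 1 and 2 and 3999 and 2996 in week 5 replicates 1 and 2. A gene that a table does not list was taken as 0.

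The 35 genes, the other lists, the markers and the classes were chosen with earlier results of these data known. Cells with under 500 genes or over 10% mitochondrial UMIs were removed (272 of 4000); no doublet caller was run. Counts were summed per library (week 5 against week 0), or per library and class of cell (with the library as a term), in Python 3.11.15, thinning with a fixed seed. Sums were tested with edgeR 4.0.16 in R 4.3.3 (quasi-likelihood, TMM, its filter on low counts, Benjamini-Hochberg over all genes tested), a call being an adjusted p under 0.05. The gene that set the classes was left out of its comparison. DESeq2 1.42.0, limma-voom (limma 3.58.1), other scalings, filters, cell choices and left-out libraries were alternatives. The tests were tried on simulated data with 2-fold and 4-fold changes in genes of 30 CPM or more. For the weeks 48.8% of the 2-fold and 99.6% of the 4-fold changes were called, and 7.59% of calls were false. For the Apoe and Lpl classes 90.8% and 91.2% of the 2-fold changes were called, with 4.22% and 3.72% of calls false. The simulated spread came from the same fits, and changes in genes of lower level, as many members are, were not tried. Named genes were those with a call in any comparison and the 3 with the highest mean CPM in each role. Intervals and floors cover counting error only. Coordinates come from GENCODE M21 and promoters from RefSeq, both on GRCm38, the build also called mm10.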

Additional observations from a re-analysis of the deposited data

How the results depend on the processing

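Between week 5 and week 0 the members called numbered 0 under DESeq2, limma-voom, library size only, thinning, the limit on genes per cell, microglia-marker cells, no cell filter and cells without a myelin marker UMI (added after seeing the data), and 1 with no gene filter (Acaca), where all genes called rose from 304 to 920. The gene limit gave 514 calls over all genes. The members' median was -0.11 with library size only and -0.0537 with thinned cells (18 tested). Leaving out a library gave 0 to 2 members, 298 to 1484 genes and medians of -0.01 to 0.28; the lone library was then assumed to vary like the pair: without week 0 replicate 1, 618 genes and Acaca, and without week 5 replicate 2, 1484 genes, Acaca and Scd2. The labels do not say whether equal replicate numbers share anything. Deviations of same-numbered libraries correlated at -0.036 over 11259 genes. With 2 libraries a group the deviations mirror each other, so this value cannot settle whether samples are paired. With the replicate block 0 members and 336 genes were called, the median being 0.09.

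For Apoe, 6 members and 2008 genes became 1 and 633 by DESeq2, 3 members with no gene filter, 0 and 662 on thinned sums (7 members tested, median -0.0225), 0 and 53 over all 4 libraries (median 0.076), 0 and 989 among cells of 3000 to 9000 UMIs (added after seeing the data) and 3 with an upper and a lower class split at the median (median 0.27). The median was -0.17 with library size only, 0.14 with classes from 2000 UMIs and 0.10 in replicate 1 alone. For Lpl, 4 members and 1542 genes became 1 and 417 by DESeq2, 1 and 378 on thinned sums (9 tested, median 0.46) and 1 and 218 in the depth window (median 0.17), each time Scd2. The median was 0.041 with library size only, 0.19 with all cells and 0.16 over all 4 libraries (750 genes). Fewer genes could be tested on thinned sums; other causes were not tested.

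For single genes no called value turned its sign. Of 263, 176 and 170 gene values under alternatives (weeks, Apoe, Lpl), 0, 29 and 15 lost a call, 4, 2 and 2 gained one, and 42, 21 and 18 uncalled ones changed sign. Where DESeq2 gave no adjusted p the gene was not counted as lost. With 2 libraries a group and few UMIs, Sqle, Scd1, Elovl6 and Fads2 could not be compared between weeks.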
